A study of Danio rerio with 12 samples.

Results

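The brains of 4 homozygous (Hom, psen2S4Ter/S4Ter) and 4 heterozygous (Het, psen2S4Ter/+) female zebrafish aged 6 months were compared by RNA-seq, to ask what differs between brains with both psen2 alleles mutated and brains with a single mutated allele. The fish were chosen by genotype alone and are 8 of the 12 fish of the study, whose other 4 are wild type (WT, psen2+/+). All 12 came from a mating of heterozygous Tübingen fish descended from a single carrier of the S4Ter mutation and shared a tank, so Hom and Het share their strain, sex, age and housing. S4Ter is a stop codon made by genome editing near the start of the psen2 coding sequence, and whether any shortened protein is made was not measured here. Each library came from the entire brain of a single fish. Library totals of the 12 fish ranged from 11878943 to 17026801 counts. The table held 32057 genes. Of these, 16021 were tested, being genes above 1.5 CPM (counts scaled to a common library size) in at least 4 fish, without the 2 mitochondrial rRNA genes.

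Presenilins are the catalytic subunits of γ-secretase, a protease complex of cellular membranes that also contains nicastrin, Aph1 and Pen-2. The complex cuts transmembrane proteins such as Notch receptors and the amyloid precursor protein, and presenilins are also known for roles in lysosomal acidification and calcium handling. Mutations of human PSEN2 cause early onset familial Alzheimer's disease.

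No gene differed between Hom and Het at a false discovery rate (FDR) under 0.05 in edgeR's quasi-likelihood test, where the smallest FDR was 0.516. At an unadjusted p under 0.05 there were 607 genes, 3.79% of those tested, with 307 higher (1.92%) and 300 lower (1.87%) in Hom. The likelihood-ratio test gave 9 genes with an FDR under 0.05 (0.0562%), 4 higher and 5 lower in Hom, DESeq2 also gave 9, and 8 genes were called by both. Those called by both and described here are ENSDARG00000100690, col12a1 and mgst3a, higher in Hom, and wu:fj16a03, zgc:112234, a gene of the SLC22A7 family and ENSDARG00000088908, lower in Hom. In 486 genes (3.03%) the 4 Hom values did not overlap the 4 Het values, with 234 above (1.46%) and 252 below (1.57%). LogFC below is the log2 change of Hom minus Het from the quasi-likelihood fit, given with its standard error (SE). CPM values are scaled by TMM and are listed for Het fish 80, 81, 84 and 89 and for Hom fish 78, 82, 83 and 85, in that order.

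The psen2 gene itself (ENSDARG00000015540, GRCz11 chromosome 1, 51048975 to 51062405, minus strand) is 1840 bases long over its 11 annotated exons. Its level was 19.9, 16.9, 22.3 and 20.9 CPM in Het and 21.0, 18.4, 20.3 and 16.5 CPM in Hom. The groups overlapped, and the logFC was -0.07 (SE 0.12, FDR 0.991). The counts do not separate mutant from wild type transcripts, so they cannot check the labelled genotypes.

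Other γ-secretase genes did not separate Het from Hom at these thresholds either. For psenen (Pen-2) the logFC was -0.23 (SE 0.19, FDR 0.989) and for aph1b it was 0.03 (SE 0.14, FDR 0.998). Among 15 tested genes of the complex and its substrates, 0 had an unadjusted p under 0.05 and the median logFC was -0.05, which turned to 0.07 without Het fish 84. The amyloid precursor gene appa had a logFC of -0.20 (SE 0.15, FDR 0.989) and notch2 one of 0.12 (SE 0.11, FDR 0.989). Among 8 tested Notch target genes 0 had an unadjusted p under 0.05, and their median logFC was -0.14 against -0.002434 over all tested genes, and -0.02 without Het 84 or without Hom 82.

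Of the genes whose Hom and Het values did not overlap, the 12 with the smallest p in each direction are described next. Their values chose them, so their separation is a description. The 4 highest ranked on the higher side are ENSDARG00000100690, col12a1, calcoco2 and mgst3a. The uncharacterised ENSDARG00000100690, whose symbol is a clone name, stood at 1.95, 3.24, 1.54 and 4.36 CPM in Het and at 8.76, 7.63, 6.96 and 8.77 CPM in Hom. Its logFC was 1.52 (SE 0.29, FDR 0.516), and the 4 WT fish ranged from 6.10 to 12.1 CPM, the range in which the Hom values lie. The gene mgst3a encodes a microsomal glutathione S-transferase, a detoxifying enzyme. It stood at 3.81, 3.24, 4.41 and 4.72 CPM in Het and at 10.1, 8.87, 12.1 and 8.77 CPM in Hom. Its logFC was 1.30 (SE 0.28, FDR 0.801), and the WT values, from 4.36 to 13.3 CPM, spanned those of Hom and part of those of Het.

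For col12a1, a collagen of the extracellular matrix, the levels were 2.23, 1.95, 3.20 and 3.29 CPM in Het and 7.01, 5.34, 6.87 and 10.5 CPM in Hom (logFC 1.48, SE 0.30, FDR 0.516). Here WT ranged from 2.44 to 6.11 CPM and overlapped both mutant groups. For calcoco2, an autophagy receptor in mammals, the levels were 1.76, 1.76, 1.54 and 1.51 CPM in Het and 2.43, 3.72, 3.48 and 4.08 CPM in Hom (logFC 1.05, SE 0.21, FDR 0.516). All 4 WT fish, from 2.68 to 3.10 CPM, lay above Het and inside the Hom range. The gene gnpat, for a peroxisomal enzyme that starts the synthesis of ether phospholipids, stood at 1.21 to 1.78 CPM in Het and 2.48 to 7.06 CPM in Hom (logFC 1.59, SE 0.36, FDR 0.900). The intracellular retinol binding protein gene rbp2 stood at 0.65 to 2.41 CPM in Het and 2.95 to 5.63 CPM in Hom (logFC 1.66, SE 0.38, FDR 0.915).

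The remaining genes on the higher side are anxa1 (annexin A1, which binds phospholipids with calcium), tacr1 (the substance P receptor), vrk2 (a protein kinase), syne2a (a nesprin that links the nucleus to the cytoskeleton), si:dkey-85k7.12 and leap2. The syne2a level in Hom fish 85, at 37.9 CPM, stood well above the other Hom fish, which lay between 10.5 and 18.8 CPM, while Het lay between 6.13 and 8.28 CPM. For leap2, an antimicrobial peptide gene of the liver in mammals, Het stood at 0, 0.185, 2.31 and 1.25 CPM and Hom at 9.44, 6.01, 3.38 and 4.51 CPM (logFC 2.67, SE 0.73, FDR 0.989). In this gene the WT fish, from 0.173 to 1.24 CPM, lay below all Hom fish.

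On the lower side, wu:fj16a03 (ENSDARG00000100952) stood at 106, 130.5, 134 and 76.0 CPM in Het and at 49.1, 70.7, 59.7 and 60.9 CPM in Hom. Its logFC was -0.89 (SE 0.16, FDR 0.516), and WT ranged from 46.5 to 55.0 CPM, below every Het fish. The uncharacterised zgc:112234 (ENSDARG00000099514; another gene of the table has the same symbol) stood at 15.9, 12.7, 17.2 and 12.7 CPM in Het and at 5.55, 8.78, 7.25 and 5.82 CPM in Hom (logFC -1.09, SE 0.20, FDR 0.516). Its WT values, 4.57 to 8.28 CPM, also lay below every Het fish. One of the genes named SLC22A7 (1 of many; ENSDARG00000056652), from a family of organic anion transporters, stood at 14.8, 11.5, 12.5 and 9.98 CPM in Het and at 5.94, 5.92, 6.67 and 7.64 CPM in Hom (logFC -0.90, SE 0.18, FDR 0.538). WT stood at 3.96 to 6.72 CPM, below Het and reaching into the Hom range. Genes of this family share sequence, so reads may be split between copies.

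In slc25a23a, a mitochondrial ATP-magnesium and phosphate carrier gene, Het stood at 57.9, 74.7, 59.8 and 64.3 CPM and Hom at 52.1, 33.4, 42.7 and 34.1 CPM (logFC -0.66, SE 0.15, FDR 0.900). WT lay between 43.5 and 54.1 CPM. The gene ENSDARG00000088908, which has no symbol, went the other way relative to WT. It stood at 2.87 to 4.34 CPM in WT, at 1.34 to 2.502 CPM in Het and at 0.389 to 0.868 CPM in Hom (logFC of Hom minus Het -1.73, SE 0.31, FDR 0.516), so the 3 genotypes did not overlap. Its levels are low, and its counts in the 12 fish ran from 4 to 56.

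The other lower genes that are named here include znf395 (a zinc finger protein; logFC -0.51, SE 0.13), flvcr2b (a transporter of choline in mammals; logFC -0.67, SE 0.17), zc3h14 (a poly(A) RNA binding protein; logFC -0.42, SE 0.11), cipca (an inhibitor of CLOCK), actr10 (a dynactin subunit), btbd6 and gcat (an enzyme of threonine breakdown; logFC -0.69, SE 0.19), all with an FDR of 0.989. For cipca the level was 55.2 to 59.2 CPM in WT, 26.2 to 31.1 CPM in Het and 19.5 to 25.5 CPM in Hom. For zc3h14 it was 35.1 to 46.0 CPM in WT, 30.2 to 33.4 CPM in Het and 21.3 to 26.5 CPM in Hom. In both genes the genotypes were ordered WT, Het, Hom without overlap. The levels of actr10 (WT 41.7 to 47.0, Het 53.3 to 74.7, Hom 40.5 to 49.4 CPM) and btbd6 (WT 48.3 to 56.3, Het 59.4 to 73.4, Hom 46.1 to 56.0 CPM) instead placed Het above both WT and Hom. Leaving out any of the 12 fish in turn kept the direction of all 24 leading genes with a symbol. Their groups do not overlap by choice, so the direction could hardly change. The unadjusted p in edgeR's test was at most 0.0146 in these fits. These genes were chosen by a small p, so neither result is a check of them.

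**Figure D1:**
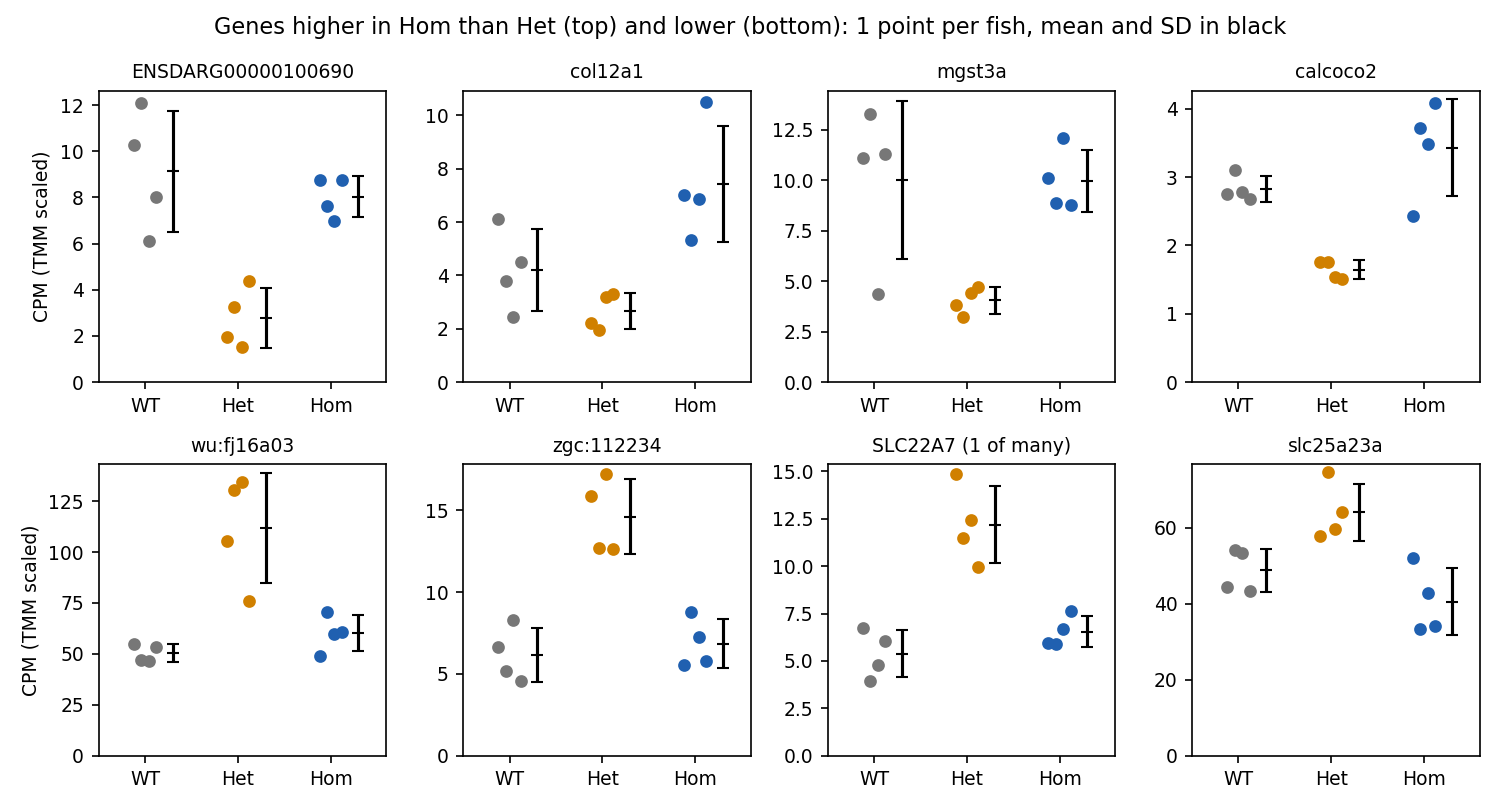
Level in CPM of 8 leading genes in each fish of the 3 genotypes (points), with the mean and SD of each group in black. The 4 upper genes have all Hom fish above all Het fish and the 4 lower genes all Hom fish below all Het fish; in ENSDARG00000100690 the WT fish, at 6.10 to 12.1 CPM, lie above Het.

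Of the 24 leading genes with a symbol, 10 lie on chromosome 20, 4 of them higher and 6 lower in Hom. This chromosome holds 663 of the 16021 tested genes, and in 5.88% of its genes Hom and Het did not overlap. Of the leading genes, 6 lie between 45 and 50 Mb, so the window described next holds many of the same genes. On that chromosome 8.30% of 663 tested genes had an unadjusted p under 0.05, and the next chromosome in order was 3, with 4.80%. Between 45 and 50 Mb of chromosome 20 the share was 32.1% (17 of 53 genes), and 11 of the 53 (20.8%) did not overlap between Hom and Het, against 3.03% of all tested genes. Among 265 windows of 5 Mb with at least 20 tested genes, the second highest share was 15.6%, between 5 and 10 Mb of chromosome 7. The rest of chromosome 20 stood at 6.23% of 610 genes, against 3.59% of 15358 genes away from chromosome 20. This window was chosen after its values were seen, and its share is a description without a test.

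The 17 genes of the window went in both directions, 8 higher and 9 lower in Hom. The higher ones included gnpat, col12a1 and mgst3a, described above, and lpin1b (a lipin; logFC 0.79, SE 0.25), kif13b (a kinesin; logFC 0.77, SE 0.28), kif3c (a kinesin; logFC 0.32, SE 0.14) and xkr5a (logFC 0.39, SE 0.17). The lower ones included flvcr2b and zc3h14 and also tmed10 (a cargo receptor between the endoplasmic reticulum and the Golgi; logFC -0.42, SE 0.13), jdp2b (a transcription repressor; logFC -0.56, SE 0.25), eif2b2 (a subunit of a translation initiation factor; logFC -0.36, SE 0.14), wdr26b (logFC -0.26, SE 0.09), extl3 (an enzyme of heparan sulphate synthesis; logFC -0.31, SE 0.11) and xrn2 (a nuclear exoribonuclease; logFC -0.24, SE 0.10). For tmed10 the Het fish stood at 90.0, 87.3, 108 and 82.6 CPM and the Hom fish at 68.0, 68.0, 65.5 and 73.4 CPM, with WT at 44.1 to 68.9 CPM. The share of the window ranged from 20.8% without Hom fish 78 to 34.0% without WT fish 86 or 88. Over all tested genes the count at an unadjusted p under 0.05 was 440 without Hom 78. It was 708 without WT 86 and 733 without WT 88, against 607 with all fish.

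The psen2 gene lies on chromosome 1, and genes close to it were counted because fish selected for the mutation also share the chromosome around it. Within 10 Mb of it 14 of 266 tested genes (5.26%) had an unadjusted p under 0.05, 5 higher and 9 lower in Hom, against 3.79% of all tested genes. Within 5 Mb the share was 6.45% of 155 genes and within 20 Mb it was 5.06% of 356 genes. Without Het fish 84, and likewise without Hom fish 82, these shares were 3.23% and 2.25%. Without Het fish 84 the share within 10 Mb was 2.63%, against 2.87% of all genes, and without Hom fish 82 it was also 2.63%. Over all tested genes, 405 of 16021 were at that p without Hom fish 82. The lowest p there belonged to slc25a23a. For the metabolic gene suclg1, a subunit of succinyl-CoA ligase, Het stood at 54.3, 56.4, 77.1 and 53.0 CPM and Hom at 40.0, 46.4, 50.2 and 47.0 CPM (logFC -0.39, SE 0.14). For ndufb7, a subunit of respiratory complex I, Het stood at 57.2, 67.0, 86.2 and 54.3 CPM and Hom at 41.9, 45.5, 53.7 and 53.5 CPM (logFC -0.44, SE 0.15). In both genes Het fish 84 was the highest of the 8 and the groups did not overlap, with an FDR of 0.989.

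The other lower genes named near psen2 were smu1b, a splicing factor (logFC -0.49, SE 0.16), and ccsap, a protein of the spindle and cilia (logFC -0.30, SE 0.12). On the higher side, zgc:158803 stood at 41.8, 40.4, 37.0 and 44.4 CPM in Het and at 47.5, 62.9, 51.1 and 51.2 CPM in Hom (logFC 0.38, SE 0.12, FDR 0.989). Others were sh3pxd2a (logFC 0.24, SE 0.10), the heat shock gene dnajb1b (logFC 0.53, SE 0.23) and unc93b1, which carries Toll-like receptors (logFC 0.35, SE 0.16). Of these, dnajb1b had a low level of 3.75 to 8.12 CPM in the 8 fish, and its groups overlapped.

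**Figure D2:**
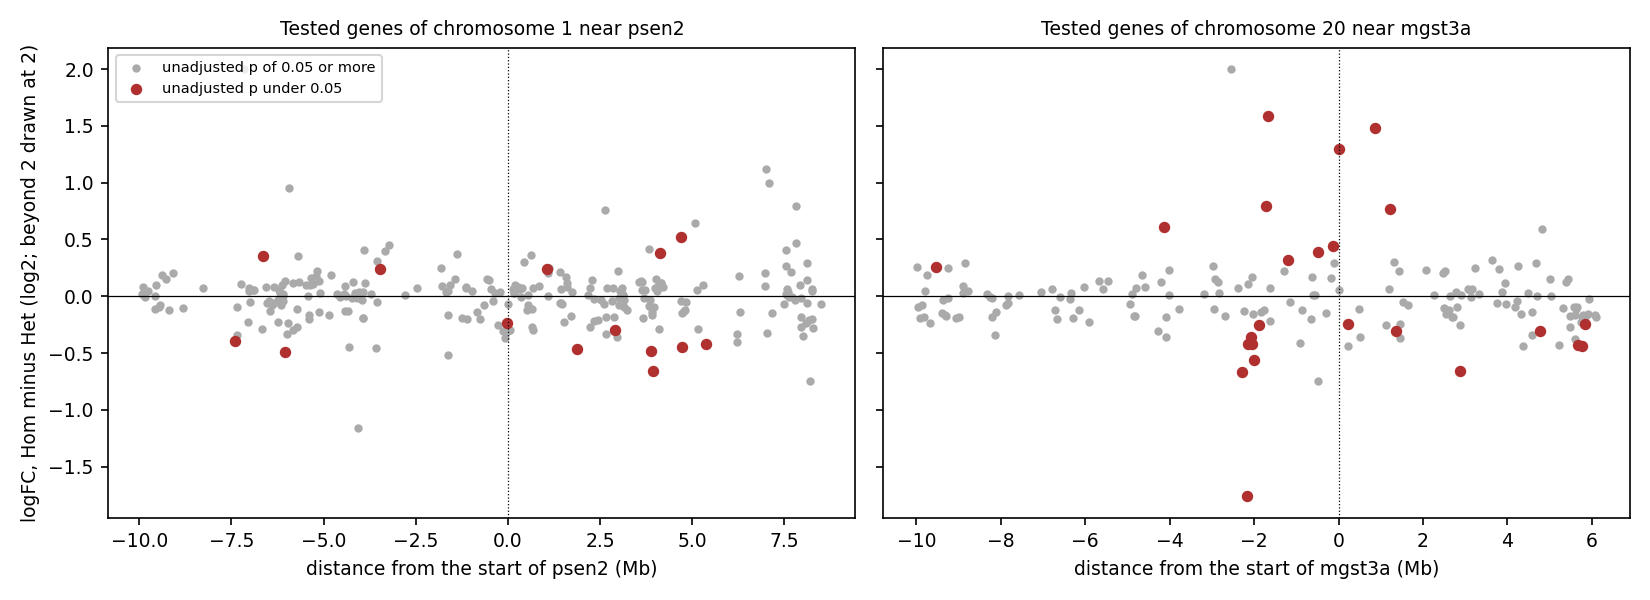
LogFC of Hom minus Het of the tested genes on chromosome 1 by distance in Mb from psen2 (left) and on chromosome 20 by distance from mgst3a (right), with genes at an unadjusted p under 0.05 in red. Near psen2 14 of 266 genes are red. They lie on both sides of it, several of them between 3.89 and 5.37 Mb away. On chromosome 20 a group of red genes with logFC on both sides of 0 lies within a few Mb of mgst3a.

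Most genes of the cytosolic ribosome and of oxidative phosphorylation had a logFC below 0, and the medians of these lists lay nearer to 0 without 1 of the Het fish. Among 83 tested cytosolic ribosomal protein genes the median logFC was -0.38, 79 were below 0, and 17 had an unadjusted p under 0.05 with lower levels in Hom and 0 with higher levels. Among 92 nuclear genes for subunits of oxidative phosphorylation (OXPHOS) the median was -0.35, 91 were below 0, and 10 were at that p, all lower. Among 75 mitochondrial ribosomal protein genes the median was -0.20, with 9 lower and 0 higher. Over all tested genes the median was -0.002434 and 1.87% were lower at that p.

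Het fish 84 stood apart in each of these lists. Relative to the mean of the 8 mutant fish, the median level of the cytosolic ribosomal genes was 0.842 higher in Het 84 on the log2 scale, while the other Het fish lay between -0.246 and 0.0478 and the Hom fish between -0.302 and 0.031. For nuclear OXPHOS genes the value was 0.705 in Het 84, -0.0798, 0.119 and -0.0561 in the other Het fish and -0.426 to 0.0555 in Hom. Without Het 84 the median logFC was -0.10 for cytosolic ribosomal genes, with 1 gene at an unadjusted p under 0.05, -0.14 for nuclear OXPHOS, with 1 gene, and -0.12 for mitochondrial ribosomal genes, with 2 genes. Other fish also moved the counts, though not the sign of the medians: without Hom 78 the genes at that p were 3 cytosolic ribosomal, 1 nuclear OXPHOS and 4 mitochondrial ribosomal, and without Hom 82 they were 2, 2 and 5. Without Het 89 they were 64, 32 and 12. The OXPHOS count was 37 without Het 80, 28 without Hom 83, 19 without WT 88 and 6 without WT 95. Over all tested genes the count at that p was 607 with all fish and 460 without Het 84. It was 440 without Hom 78, 405 without Hom 82 and 987 without Het 89. It was 573 without Het 80, 724 without Hom 83, 733 without WT 88 and 567 without WT 95. As an example, rps20 stood at 55.5, 51.1, 108 and 30.3 CPM in Het and 30.4, 27.6, 33.8 and 44.6 CPM in Hom (logFC -0.84, SE 0.30, FDR 0.989), where Het 89 lay inside the Hom range. The gene rpl13a stood at 169, 175, 293 and 137 CPM in Het and 122, 128, 149 and 149 CPM in Hom (logFC -0.50, SE 0.18, FDR 0.989).

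Within the mitochondrial ribosome, mrpl10 stood at 10.4, 11.9, 14.7 and 10.7 CPM in Het and 6.13, 8.11, 8.80 and 9.46 CPM in Hom (logFC -0.55, SE 0.19, FDR 0.989). The gene mrps23 stood at 6.41, 6.21, 6.83 and 5.61 CPM in Het and 3.99, 4.01, 5.41 and 4.78 CPM in Hom (logFC -0.46, SE 0.16, FDR 0.989). In these genes all 4 Het fish lay above Hom, and in 5 of the 75 genes the groups did not overlap in this direction, as did 0 of the 83 cytosolic ribosomal genes and 5 of the 92 nuclear OXPHOS genes, where 1.57% of all tested genes did so.

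These genes are short, with a median annotated length of 1211 bases in the cytosolic ribosomal list, 917 in nuclear OXPHOS and 1081 in the mitochondrial ribosomal list against 2642 over all tested genes. Of 1148 tested genes under 1000 bases, 78 were lower and 17 higher at an unadjusted p under 0.05, and their median logFC was -0.15. Genes of 4000 bases or more had a median of 0.04, with 112 higher and 23 lower. Genes under 500 bases took 20.4% of the counts outside mitochondrial rRNA in Het 84 and 8.62% to 11.6% in the other Het fish. They took 7.96% to 10.6% in Hom and 3.32% to 9.58% in WT. Hom minus Het was -3.75 points of that percentage, with an exact permutation p of 0.114 (0.642 adjusted across the 19 measures per fish). The smallest p possible with 4 fish in each group is 0.0286 in an exact test. After a correction of each library for gene length the median logFC was -0.32 for cytosolic ribosomal genes, -0.26 for nuclear OXPHOS and -0.16 for mitochondrial ribosomal genes. The same correction took the median of all tested genes under 1000 bases to -0.038 and that of genes of 4000 bases or more to -0.0003. The part of library composition in these lists was not tested further.

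The 13 protein genes of the mitochondrial genome, which encode the other OXPHOS subunits, stood nearer to 0 than the nuclear list. Their median logFC was -0.09, 6 were above 0 and 7 below, and 0 had an unadjusted p under 0.05. The median turned to 0.06 after the length correction, and was -0.02 without Het 84, -0.03 without Het 81 and -0.19 without Het 89. The gene mt-co1 stood at 25830, 31420, 24550 and 24060 CPM in Het and 29940, 25390, 28970 and 26770 CPM in Hom (logFC 0.07, SE 0.16, FDR 0.994). The lowest logFC was that of mt-nd3 (-0.50, SE 0.29, FDR 0.989), with 1498 CPM in Het 84 and 639 to 886 CPM in the other Het fish. The logFC of mt-atp8 was -0.17 (SE 0.55) and turned to 0.32 after the length correction, and that of mt-atp6 turned from -0.11 to 0.01. Mitochondrial rRNA made up 31.3% to 35.2% of counts in Het and 31.4% to 35.5% in Hom. In WT it made up 17.9% to 26.4%, below every mutant fish. Whether this difference between libraries bears on the WT levels given beside Het and Hom was not tested.

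**Figure D3:**
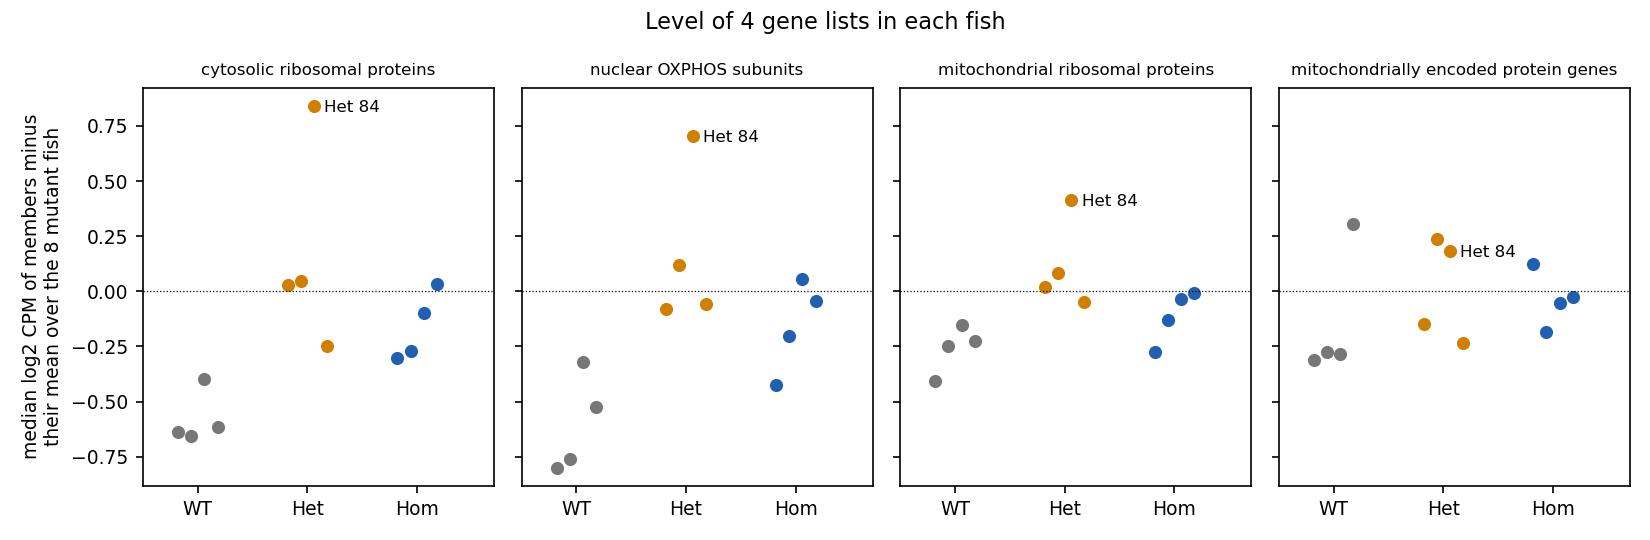
Level of 4 gene lists in each fish, as the median over members of log2 CPM minus the mean of the 8 mutant fish. Het 84 lies at 0.842 for cytosolic ribosomal proteins and 0.705 for nuclear OXPHOS subunits, above all other fish, and at 0.184 for the mitochondrially encoded genes, inside the range of the others.

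The shares of the remaining pathway lists at an unadjusted p under 0.05 ran from 2.17% (heat shock and endoplasmic reticulum stress) to 11.4% (clock genes), against 3.79% of all tested genes. The proton pump of lysosomes (V-ATPase, 28 tested genes) had a median logFC of -0.10 with 2 genes lower (7.14%), atp6ap2 (logFC -0.29, SE 0.12) and atp6v1aa (logFC -0.29, SE 0.13). The level of atp6v1aa was 285 CPM in Het 84, 197 to 202 CPM in the other Het fish and 175 to 184 CPM in Hom. The count was 0 of 28 without Het 84, Hom 78, Hom 82 or Hom 83, and 1 without Het 81. Glutathione and xenobiotic metabolism had 1 higher (mgst3a) and 4 lower of 89 genes with a median of -0.01. The lower ones were the cytochromes P450 cyp3c1 (logFC -0.34, SE 0.12) and cyp2p7 (logFC -0.58, SE 0.22), the sulphotransferase sult2st1 (logFC -0.50, SE 0.20) and the glutathione peroxidase gpx4a (logFC -0.84, SE 0.39), all with an FDR of 0.989. The 5 became 2 without Het 84, 3 without Het 80 or Hom 78, and 8 without Hom 83. Solute carriers had 4 higher and 10 lower of 281 genes (median -0.03), and 14 in all became 7 without Hom 78 and 9 without Het 81 or Hom 85. Among them was slc40a1, the iron exporter ferroportin, at 39.2 to 46.4 CPM in Het and 44.97 to 66.8 CPM in Hom (logFC 0.40, SE 0.14). Over all tested genes the count of 607 at that p also moved with a fish left out. It was 573 without Het 80, 632 without Het 81, 460 without Het 84 and 440 without Hom 78. It was 405 without Hom 82, 724 without Hom 83 and 600 without Hom 85.

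Clock genes, which drive the daily rhythm of the cell, had 2 higher and 2 lower of 35 genes (11.4%, median logFC -0.03). With a fish left out 3 to 10 were at that p, 10 without Het 89 and 7 without Hom 83. Without Het 89 the count over all tested genes also rose, from 607 to 987, and without Hom 83 it rose to 724. The activator bmal1 stood at 17.6, 17.5, 16.8 and 20.8 CPM in Het and 24.9, 26.1, 23.5 and 20.8 CPM in Hom (logFC 0.39, SE 0.13, FDR 0.989), and cry3a had a logFC of 0.41 (SE 0.18). The repressor bhlhe41 stood at 270.5, 293, 305 and 241 CPM in Het and 206, 229, 209.7 and 236 CPM in Hom (logFC -0.33, SE 0.11, FDR 0.989), and at 324 to 401 CPM in WT, so that WT, Het and Hom followed each other without overlap. The hour at which each brain was taken is not given in the sources used here. DNA replication and repair had 2 higher and 3 lower of 50 genes (10.0%, median -0.04). The replication clamp gene pcna stood at 28.6, 26.5, 36.0 and 22.4 CPM in Het and 23.0, 22.0, 22.2 and 25.4 CPM in Hom (logFC -0.29, SE 0.13), while the mismatch repair gene mlh3 had a logFC of 0.38 (SE 0.16) and the checkpoint gene rad17 one of -0.34 (SE 0.14). The 5 genes of this list at that p became 1 without Hom 82, 2 without Het 80 or Hom 78, and 3 without Het 81, Het 84, Hom 85 or WT 79. Over all tested genes the count of 607 became 405 without Hom 82, 573 without Het 80 and 440 without Hom 78. It was 632 without Het 81, 460 without Het 84, 600 without Hom 85 and 567 without WT 79.

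Immediate early genes, which are switched on by neuronal activity, had 0 higher and 1 lower of 24, egr2, at 19.5, 6.95, 15.7 and 8.55 CPM in Het and 5.06, 10.6, 6.67 and 8.25 CPM in Hom (logFC -0.72, SE 0.31, FDR 0.989). Het fish 80 and 84 lay above all Hom fish and the other Het fish lay among them. Heat shock and endoplasmic reticulum stress genes had 2 higher and 0 lower of 92 (median 0.0024), the chaperone hspa2 (Het 2.87 to 4.19, Hom 4.87 to 6.19 CPM, logFC 0.64, SE 0.19) and dnajb1b. Iron and hypoxia genes had 1 higher, slc40a1, and 0 lower of 18 (median 0.06). The transferrin receptor gene tfr1a had a logFC of -0.53 (SE 0.27) and hif1aa, for a hypoxia factor, one of 0.48 (SE 0.26), and neither had an unadjusted p under 0.05.

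**Figure D4:**
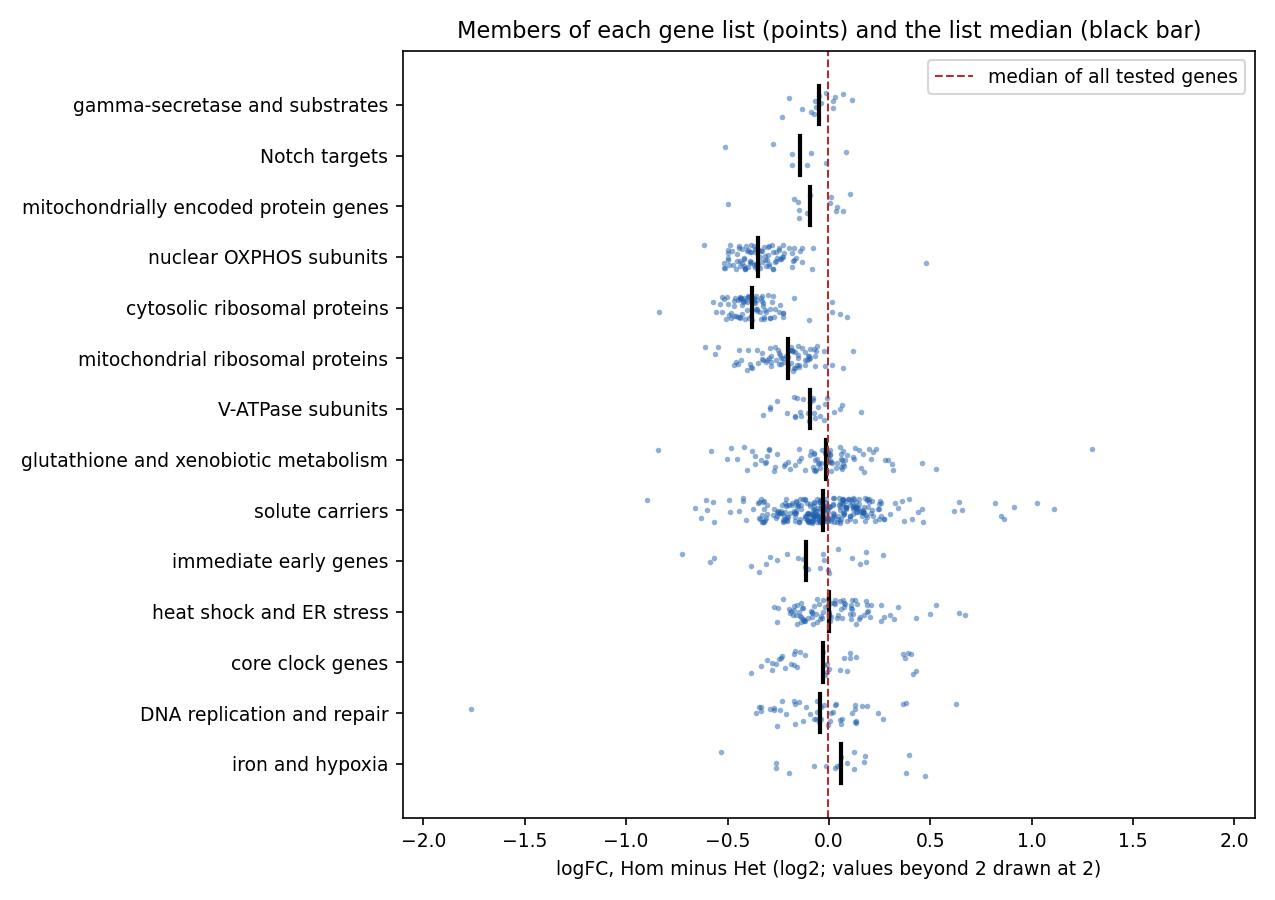
LogFC of Hom minus Het of each tested member of 14 gene lists (points), with the list median as a black bar and the median of all tested genes as a dashed line. The medians of cytosolic ribosomal proteins (-0.38), nuclear OXPHOS subunits (-0.35) and mitochondrial ribosomal proteins (-0.20) lie farthest to the left, and those of the other lists lie between -0.14 and 0.06.

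Markers of cell types present in a brain sample were checked beside these lists. Sums are over all matched genes of a list, also those too low to be tested, while mean levels and logFC cover tested genes only. In whole brain, fewer cells of a type and less RNA per cell cannot be told apart. Over all tested genes 3.79% had an unadjusted p under 0.05. Neuron markers summed to 8605 to 9156 CPM in Het and 8249 to 9553 CPM in Hom, and 0 of 20 had an unadjusted p under 0.05. The 11 tested markers of radial glia all had a logFC below 0 (median -0.16), with glulb, a glutamine synthetase, at that p (logFC -0.37, SE 0.16), but not without Het 80, 81 or 84 or Hom 78 or 82. Of 13 tested microglia markers 12 were above 0 (median 0.17), and spi1b, the myeloid transcription factor PU.1, stood at 7.24, 8.62, 7.28 and 7.39 CPM in Het and 10.0, 12.3, 10.6 and 10.4 CPM in Hom (logFC 0.51, SE 0.16, FDR 0.989). WT fish overlapped both groups for this gene, from 8.88 to 14.2 CPM. The mean level of the microglia markers was 0.165 higher in Hom on the log2 scale (exact permutation test, p = 0.200, adjusted p = 0.642). Their summed level, which covers 15 genes, did not follow it. The sums were 840.9, 1031, 1188 and 763.8 CPM in Het and 809.4, 961, 1003 and 990.9 CPM in Hom. The groups overlapped, and the highest fish was Het 84.

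Genes of pineal gland and retina varied widely between fish. Over 20 genes, their summed level was 86.7, 52.0, 31.2 and 254 CPM in Het and 496, 299.6, 375 and 31.6 CPM in Hom. In WT it was 7.67 to 266 CPM. Hom 78, 82 and 83 were higher than every Het fish, and Hom 85 was at the level of the lowest Het fish. Of 16 tested genes all 16 had a logFC above 0 (median 1.76, against -0.002434 over all tested genes). An unadjusted p under 0.05 was found in 5 of them (31.2%), against 3.79% of all tested genes. The groups overlapped in all 16. The photoreceptor transcription factor gene crx (ENSDARG00000011989) stood at 0.557, 1.67, 0.110 and 1.07 CPM in Het and 20.3, 6.97, 4.83 and 0.434 CPM in Hom (logFC 3.20, SE 1.25, FDR 0.989). The count of 5 became 0 without Het 84 or without Hom 78, 1 without Het 80, 3 without Hom 83, 8 without WT 88 and 11 without Het 89 or without Hom 85. Without Het 89 the count over all tested genes also rose, from 607 to 987. That count was 460 without Het 84, 440 without Hom 78 and 573 without Het 80. It was 724 without Hom 83, 733 without WT 88 and 600 without Hom 85. The mean level of the list differed by 1.72 on the log2 scale (exact permutation test, p = 0.114, adjusted p = 0.642).

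Muscle genes also separated the fish. They summed to 256 CPM in Het 84, to 6.12 to 31.3 CPM in the other Het fish and to 59.6 to 105.9 CPM in Hom. With all fish 0 of 6 tested muscle genes had an unadjusted p under 0.05 (median logFC 0.26), and without Het 84 all 6 were higher in Hom at that p (median 2.41), while the median was -0.11 without Het 80, -0.14 without Het 81 and -0.0084 without Het 89. Of all 16021 tested genes, 607 were at that p with all fish and 460 without Het 84. Pituitary genes summed to 3.16 to 24.9 CPM in Het and 4.78 to 11.3 CPM in Hom. The part of these tissues in other results was not tested.

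**Figure D5:**
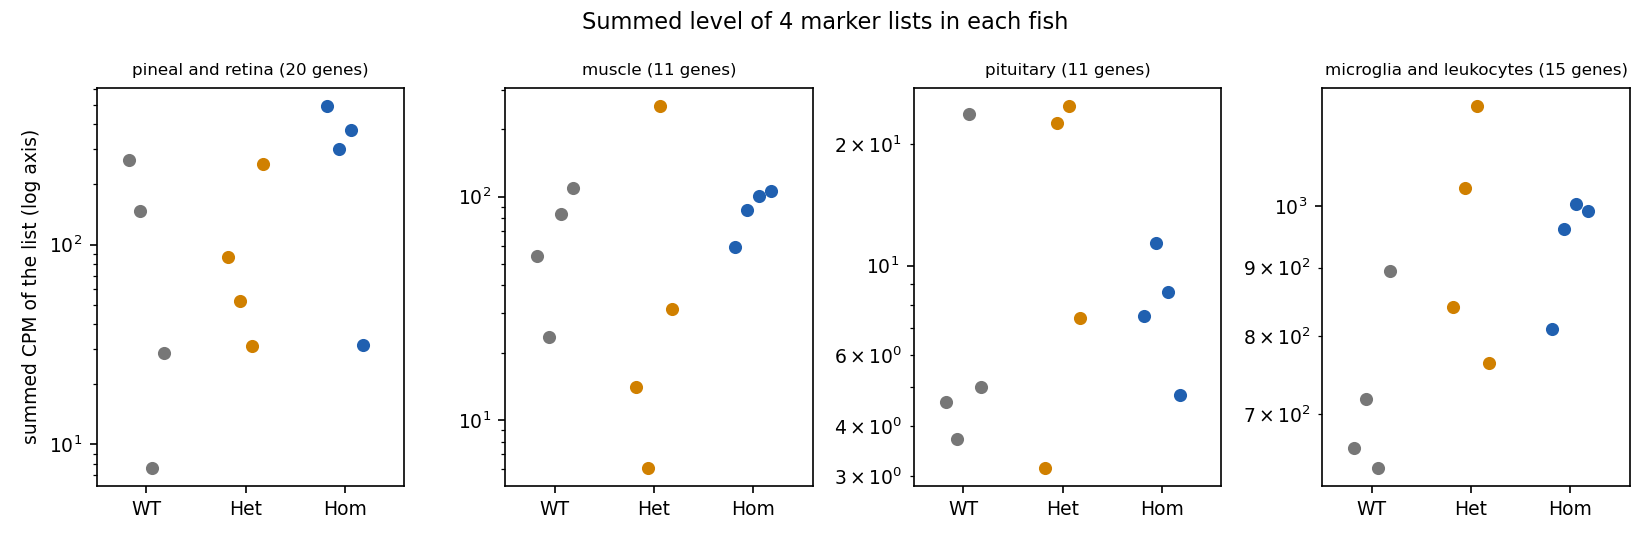
Summed CPM of 4 marker lists in each fish, on log axes. Pineal and retina genes range from 31.6 to 496 CPM within Hom, and muscle genes reach 256 CPM in a Het fish, number 84, above all others.

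The 8 mutant fish did not divide by genotype along the leading axes of variation. The first principal component (27.0% of the variance) placed Het 84 at -46.2 and Hom 78 at 39.6 at its ends, with the other 6 fish between -10.4 and 18.2. The sign of each component was set so that the Hom mean is the higher, so only the size of a difference is a result. On the first component the means differed by 23.1 (exact permutation test, p = 0.286, adjusted p = 0.642). The second component (20.8%) gave a difference of 8.92 (exact permutation test, p = 0.600, adjusted p = 0.798). Of the 19 measures per fish compared, none reached p = 0.0286, and the lowest p was that of the number of genes detected, 257 more in Hom (exact permutation test, p = 0.0571, adjusted p = 0.642).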

How the data were processed

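The deposited values are raw counts of read pairs per gene, which the authors made from adapter-trimmed reads (cutadapt 1.14) aligned to GRCz11 (STAR 2.7.0d) and counted by strand with featureCounts (Subread 1.5.2, mapping quality of at least 10). Gene lengths are those deposited with the counts, a column of another unit. RNA was depleted of rRNA with probes for mammalian sequences, which leaves fish rRNA. Symbols came from a table of Ensembl IDs (28988 of 32057 genes) and the study's gene names, many being human symbols without a paralogue letter, set here in lower case. Genes above 1.5 CPM in at least 4 of 12 fish were kept (16023 genes) and the 2 mitochondrial rRNA genes left out. Counts were TMM scaled and tested with edgeR 4.0.16 (glmQLFit and glmQLFTest, R 4.3.3) in a fit with the 3 genotypes, so WT fish add to the estimate of spread (9 residual degrees of freedom, common biological CV 19.8%). FDR is Benjamini-Hochberg adjusted. The standard error is the absolute logFC divided by the square root of F. Log2 CPM used a prior count of 2.

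Alternatives were DESeq2 1.42.0, the likelihood-ratio test, upper-quartile scaling, no filter, at least 10 counts in every fish, the 8 mutant fish alone, the rRNA share as covariate, a length correction (spline with 5 degrees of freedom), each fish left out, and, added after the data were seen, the length correction with the likelihood-ratio test. Windows of 5 and 20 Mb around psen2 were also counted. For single measures per fish, exact permutation tests (two-sided) ran over all 70 groupings of the 8 fish. Scripts were tested on simulated data.

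The comparison, lists and named genes were chosen with earlier results of these data known. Named genes are those of γ-secretase and the mitochondrial genome, 12 in each direction with the smallest p among genes without overlap, up to 5 in each direction near psen2 and up to 2 per list and direction, or all where 6 or fewer passed. Some genes of the rule are not reported here. At these depths 3 counts equal 0.176 to 0.253 CPM. Replicates of a genotype differed beyond sampling noise in every pair (chi-square of at least 9.47 per degree of freedom), so each library was used as a separate replicate. The fish of a genotype are separate animals of a single family.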

Additional observations from a re-analysis of the deposited data

Results flagged for a closer look

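Dixon's criterion was applied to groups of 4 fish, for 105 genes named by rule and 19 measures per fish, in Het and in Hom. It takes the gap of a fish to the nearest value as a share of the range. Of 248 groups, 13 held a fish that stood far from the other 3. This share is close to the 5% of such groups that chance gives. The fish listed here are therefore a description. Het 84 was that fish in 4 genes: actr10 (74.7 CPM, others 53.3 to 55.2), suclg1 (77.1 CPM, others 53.0 to 56.4), ndufa12 (54.1 CPM, others 29.4 to 33.6) and atp6v1aa (285 CPM, others 197 to 202).

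Het 80 stood apart in dnajb1b (5.76 CPM, others 3.75 to 4.08) and in the mean log2 CPM of radial glia markers (7.05, others 6.73 to 6.75). Het 81 stood apart in mrpl54 (20.2 CPM, others 11.3 to 12.2) and mt-nd6 (1503 CPM, others 1008 to 1068). Hom 78 stood apart in vrk2 (1.95 CPM, others 2.95 to 3.05), extl3 (51.9 CPM, others 58.6 to 59.0) and ccsap (64.5 CPM, others 47.8 to 49.6), Hom 83 in gpx4a (47.5 CPM, others 19.3 to 22.9) and Hom 82 in the mean log2 CPM of erythrocyte markers (3.88, others 3.11 to 3.21).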

How the results depend on the processing

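No paired analysis was possible because no fish number is shared between genotypes. The count of 0 genes at an FDR under 0.05 became 9 with DESeq2, 9 with the likelihood-ratio test and 9 with the likelihood-ratio test after the length correction, an alternative chosen after seeing the data. Of these genes 7 were called in all 3 fits. The count stayed at 0 in the other alternatives, each fish left out included. The count of 607 at an unadjusted p under 0.05 was out of 16021 tested genes. On the same genes it was 781 with the rRNA share as covariate and 769 with the 8 mutant fish alone. Other alternatives with all fish and these genes gave 517 (length correction with the likelihood-ratio test) to 597 (upper-quartile scaling). The count was 1022 with no filter on low counts, but out of 25857 tested genes, so it cannot be compared directly with 607. With a fish left out the count ran from 405 (without Hom 82) to 987 (without Het 89). The causes of these changes were not tested.

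With a fish left out, list medians ran from -0.1244 (without Hom 83) to -0.03006 for clock genes, with -0.09861 without Het 81 and -0.09094 without Het 89, from -0.01087 (without Het 89) to 0.1341 (without Het 81) for iron and hypoxia, and from -0.003042 (without Hom 83) to 0.01914 for genes within 5 Mb of psen2, whose median was 0.02067 with upper-quartile scaling. The median changed sign without Het 84 for γ-secretase and its substrates (0.07) and after the length correction for mitochondrially encoded genes (0.06), and that of heat shock genes, 0.0024, lay so near 0 that several alternatives changed its sign. The medians of both ribosomal lists and of nuclear OXPHOS stayed below 0 in every alternative.

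Genes close to no difference changed sign. The logFC after the length correction was 0.008471 for mt-atp6 (0.008472 with the likelihood-ratio test) and 0.3156 for mt-atp8 (0.315). It was -0.005286 (no filter) and -0.004396 (rRNA share as covariate) for mt-nd2, and -0.01219 (no filter) for mt-nd6. With a fish left out the logFC ran from -0.02071 to 0.07659 for aph1b, -0.01657 to 0.1626 for mrps22, -0.008877 to 0.1566 for hey1, -0.2141 to 1.172 for cox4i1l, -0.07901 to 0.09172 for mt-nd2, -0.03493 to 0.09926 for mt-nd4, -0.01158 to 0.106 for mt-nd5 and -0.1282 to 0.159 for mt-nd6.

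As shares of all counts, without TMM, Hom minus Het on the log2 scale was 0.01352 for psen2, 0.07731 for neuron markers and 0.02911 for oligodendrocyte markers, each against a value below 0 with TMM. With a fish left out it ran from -0.1448 to 0.0002253 for psen2, -0.04263 to 0.05038 for neuron, -0.1311 to 0.01792 for oligodendrocyte, -0.0007112 to 0.08625 for endothelial, -0.3097 to 0.01155 for erythrocyte and 0.7246 to 2.597 for muscle markers. The last had an exact permutation p of 0.0286 without Het 84, the smallest that this test can give. The difference ran from -0.9966 to 0.5286 points for the percentage of mitochondrial rRNA, -0.02678 to 0.749 for that of mitochondrial protein genes, -5.153 (without Het 89, exact permutation p of 0.0286) to -1.207 (without Het 84) for that of genes under 500 bases, and -0.1971 to 21.18 for the second principal component. That p is again the smallest the test can give. Neither p was adjusted for the number of measures or of fish left out.

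Genes near 2 CPM, such as calcoco2 and vrk2, rest on few counts per library. With 4 fish in a group, no gene passed the adjusted quasi-likelihood test (smallest FDR 0.516).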
